A study of Mus musculus with 4 samples.

Results

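The cytochrome P450 family 4 genes were followed across renal cortex arrays of diabetic and nondiabetic mice with and without ICAM-1, a leukocyte adhesion molecule of the vessel wall. Members were taken by name: every probe whose symbol in the platform's probe-to-gene table begins with Cyp4. This gave 9 genes, each with 1 probe, of 9077 named genes on the array. Of these, 8 belong to the Cyp4 family: Cyp4a12a, Cyp4a14, Cyp4b1, Cyp4f13, Cyp4f14, Cyp4f15, Cyp4f16 and Cyp4f18. The prefix also caught Cyp46a1, the cholesterol 24-hydroxylase of another P450 family, which is kept in the counts and described on its own. RefSeq lists 20 protein-coding Cyp4 genes in the mouse, so most Cyp4 paralogs were not analysed here.

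All mice were male C57BL/6J in strain. The 2 wild-type (ICAM-1+/+) groups were nondiabetic (ND-WT) and diabetic (DM-WT), and the 2 groups of ICAM-1-/- mice, whose deletion lies on the same strain background, were likewise nondiabetic (ND-KO) and diabetic (DM-KO). Diabetes was induced at 8 weeks of age by 1 intraperitoneal injection of streptozotocin, a toxin of the insulin-producing beta cell, at 200 mg/kg, and only mice above the study's blood glucose limit were kept. Nondiabetic mice received the citrate buffer alone. Renal cortex was taken 12 weeks after the injection, at 20 weeks of age, from 5 mice in each group, and RNA of each group was hybridised to 1 CodeLink bioarray. The labels do not say whether that RNA came from 1 mouse or from a pool. There are therefore no replicates, no difference between 2 arrays has a replicate error or a p-value, and such differences are given by size, as higher or lower on an array. Genotypes are as labelled, and the ICAM-1 transcript is not analysed here.

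Levels are log2 intensities after background correction and quantile normalization, and a spot counts as measured where the scanner software marked it usable. Of 10032 gene probes, 62.8% to 66.2% were measured per array. Where measured, the 822 probes without a symbol count as genes in the totals that follow, except where named genes are stated. Bacterial control probes with at least 3 usable spots on an array gave a spot-to-spot SD of a difference of 0.13 on the log2 scale. This SD covers spotting within an array and nothing between mice. Bacterial control RNA on DM-WT was 0.557 times that on ND-WT. The same ratio to ND-WT was 1.27 for ND-KO and 1.20 for DM-KO. On DM-WT the printed right edge of the upper block was short of usable spots: of 475 genes there, 223 were measured on both DM-WT and ND-WT and 276 on both ND-KO and ND-WT. No Cyp4 probe lies at that edge, yet ranks and tests depend on the other genes, so those that move are also given with edge spots left out. Of 20 proximal tubule markers on the array, 20 were measured on at least 1 array and 19 on all 4, including Slc34a1, the phosphate transporter of the proximal tubule.

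Enzymes of the Cyp4 family add a hydroxyl group to the last carbon of a fatty acid, the first step of omega-oxidation, after which alcohol and aldehyde dehydrogenases turn the chain into a dicarboxylic acid that peroxisomes shorten. In the kidney, Cyp4a enzymes of the proximal tubule also convert arachidonic acid to 20-HETE, a lipid that acts on vessel tone and tubular salt transport. Mouse Cyp4a genes differ in their control: Cyp4a14 is a classical target of the fatty acid receptor PPAR-alpha and is held low by androgen, Cyp4a12a needs androgen and is the main 20-HETE synthase of the male kidney, Cyp4b1 is raised by androgen in the kidney, and Cyp4f enzymes act on leukotriene B4 and other long-chain lipids.

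The start regions of the members are shown as sequence only, and their link to the levels on these arrays was not tested. RefSeq promoter entries were found for 7 of the 9 members, with no entry for Cyp4a14 or Cyp4a12a. The 250 bases before the start of Cyp4b1 (GRCm38.p6, chr4:115647722-115647971, minus strand, 5′ to 3′) follow, with capitals marking TGTTCT, the half-site bound by steroid receptors such as the androgen receptor, which begins at position -248 counted back from the start.
Cyp4b1: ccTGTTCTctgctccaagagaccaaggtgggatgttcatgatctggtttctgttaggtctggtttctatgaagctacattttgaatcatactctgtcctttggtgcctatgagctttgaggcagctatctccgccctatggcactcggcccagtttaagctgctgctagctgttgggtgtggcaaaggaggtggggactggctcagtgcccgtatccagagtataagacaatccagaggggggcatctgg
TGTTCT on either strand occurs in 16.1% of the 32851 mouse promoter entries of that length, and among the members only Cyp4b1 holds it. Neither AGGTCA, the half-site of PPAR-alpha and related receptors (14.0% of entries), nor its repeat AGGTCANAGGTCA (0.0335%), nor a plus-strand TATAAA (7.59%) was found in any member's window. The 5 Cyp4f genes share a short stretch instead, in which capitals mark GATTGG, the reverse complement of the CCAAT box core, a motif chosen after the sequences were read. It occurs on either strand in 14.6% of entries and also in that of Cyp46a1.
Cyp4f13 (chr17:32947406-32947465, minus strand): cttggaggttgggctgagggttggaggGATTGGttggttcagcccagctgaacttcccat
Cyp4f14 (chr17:32917375-32917434, minus strand): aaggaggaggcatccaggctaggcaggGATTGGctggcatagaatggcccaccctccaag
Cyp4f15 (chr17:32685553-32685612, plus strand): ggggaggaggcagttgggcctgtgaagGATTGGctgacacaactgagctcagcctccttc
Cyp4f16 (chr17:32536506-32536556, plus strand): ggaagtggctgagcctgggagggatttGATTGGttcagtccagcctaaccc
Cyp4f18 (chr8:72009643-72009702, minus strand): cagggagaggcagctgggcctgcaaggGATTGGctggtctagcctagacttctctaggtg
The motif began between position -24 in Cyp4f16 and -79 in Cyp4f15 in the entries printed. These matches describe letters in a window and show no binding.

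**Figure D1:**
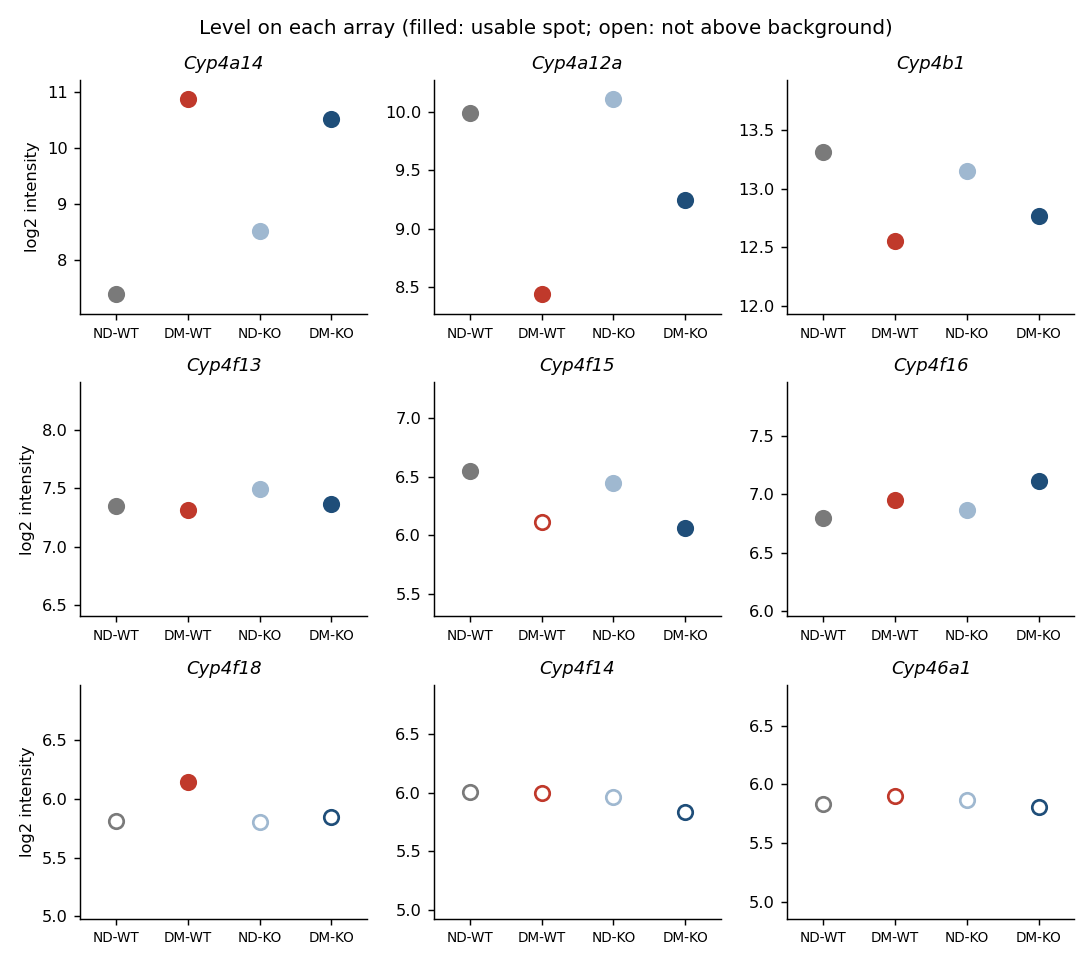
Log2 intensity of the 9 probes on the 4 arrays, 1 point per array, filled where the spot was usable and open where it was not above background; each panel has its own axis. Cyp4a14 sits at 10.86 and 10.50 on the diabetic arrays against 7.38 and 8.50 on the nondiabetic ones, and Cyp4a12a and Cyp4b1 are lower on both diabetic arrays.

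Cyp4a14, an omega-hydroxylase of lauric acid, was at 7.38 without and 10.86 with diabetes in wild type, and at 8.50 without and 10.50 with diabetes in ICAM-1-/- mice. Both diabetic arrays lay above both nondiabetic arrays, and ND-WT was the lowest of the 4. In wild-type mice the diabetic array was 11.2-fold above the nondiabetic one, a log2 difference of 3.49, the highest of 6055 genes measured on both. In ICAM-1-/- mice it was 4.01-fold higher, a difference of 2.00, again the highest of 6339. The deposited value table, whose values are intensities divided by 1 constant per array, listed 2.76, 41.5, 7.32 and 30.4 in the same order, ratios of 15.0 and 4.15. By construction the log2 scale, with its offset of 50 added before taking logs, gives smaller folds than such ratios where a spot is dim.

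Without diabetes, Cyp4a14 was 2.18-fold higher on ND-KO than on ND-WT, the second highest of 6258 genes, and the highest of 5976 with edge spots left out. With diabetes it was 1.28-fold lower on DM-KO than on DM-WT, a log2 difference of -0.36. The diabetes difference in ICAM-1-/- mice minus that in wild type was -1.48, at rank 11 by size among the 5914 genes measured on all 4 arrays. With 1 array per group that gap between genotypes was not tested. Among the same 5914 genes, 0.372% were at least 1.5-fold higher with diabetes in both genotypes (22 genes), and Cyp4a14 had the largest value of the smaller of its 2 differences.

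Cyp4a12a, the androgen-dependent 20-HETE synthase, ran the other way, at 10.00 without and 8.43 with diabetes in wild type, and at 10.11 and 9.24 in ICAM-1-/- mice. The 2 nondiabetic arrays differed by 0.12, and both lay above both diabetic arrays. In wild-type mice it was 2.95-fold lower with diabetes, a log2 difference of -1.56, the sixth lowest of 6055 genes and, with edge spots left out, the lowest of 5829. In ICAM-1-/- mice it was 1.83-fold lower, a difference of -0.87, at rank 8 from the lowest of 6339 genes with edge spots kept and at the same rank with them left out. Of the 5914 genes, 0.186% (11 genes) were at least 1.5-fold lower in both genotypes, and Cyp4a12a had the second lowest value. Between the diabetic arrays it was 1.75-fold higher on DM-KO, 0.81 on the log2 scale. Its sequence is close to that of Cyp4a12b, which is not analysed here on its own, so signal from the 2 genes cannot be told apart and the value is uncertain as one of Cyp4a12a alone. Whether the Cyp4a14 probe also takes up signal from related genes such as Cyp4a10, Cyp4a31 and Cyp4a32 was not checked.

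Cyp4b1, which hydroxylates short-chain fatty acids and some foreign compounds, was at 13.31 without and 12.55 with diabetes in wild type, and at 13.15 and 12.77 in ICAM-1-/- mice. The order was that of Cyp4a12a by treatment, both nondiabetic arrays above both diabetic ones, over a narrower span. With diabetes it was 1.69-fold lower in wild-type mice (-0.76 on the log2 scale) and 1.31-fold lower in ICAM-1-/- mice (-0.39). The second value depends on scaling: it was -0.68 under median scaling and -0.71 in the deposited value table, where the listed values were 244, 131, 225 and 137. The genotypes differed by -0.16 without diabetes and by 0.21 with it.

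The Cyp4f probes were dimmer, and only Cyp4f13 and Cyp4f16 were measured on all 4 arrays. Cyp4f13 was at 7.35 and 7.32 in wild type without and with diabetes and at 7.49 and 7.37 in ICAM-1-/- mice, differences of -0.03 and -0.13. In the same order Cyp4f16 was at 6.80, 6.95, 6.86 and 7.11, with differences of 0.15 and 0.25, both in the direction opposite to Cyp4b1. All of these lie far inside 1.5-fold, and -0.13 and 0.15 are about the size of the spot-to-spot SD.

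Cyp4f15, a leukotriene B4 hydroxylase, was at 6.55 in nondiabetic wild type and not well above background in diabetic wild type, and at 6.45 without and 6.06 with diabetes in ICAM-1-/- mice. With the dim DM-WT spot at its measured value, Cyp4f15 was 1.35-fold higher on ND-WT than on DM-WT. It was 1.31-fold lower on DM-KO than on ND-KO. In the deposited table, where no offset shrinks dim spots, its values in ICAM-1-/- mice were 0.878 without and 0.395 with diabetes, a ratio of 0.449. The size of its difference in ICAM-1-/- mice thus depended on the handling of dim spots, while it was lower with diabetes there under each of the 5 other settings tried.

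Cyp4f18, a leukotriene B4 hydroxylase known from neutrophils, was marked above background on DM-WT alone, at 6.15. That is at least 1.08-fold above ND-WT and at least 1.11-fold above DM-KO. Its background-subtracted intensity on DM-WT was 18.8, below the 56.6 of the brightest negative control spot there. On that array 3 of 300 negative control spots were also marked usable, so the Cyp4f18 signal is uncertain. Of 4 macrophage markers on the array, C1qa, C1qb and Lyz2 were measured on all arrays and Adgre1 on none. Those 3 had a median diabetes difference of 0.85 in wild-type and 0.33 in ICAM-1-/- mice, and the summed scaled intensity of the list was 9.47 and 19.0 in wild type without and with diabetes, and 10.0 and 13.2 in ICAM-1-/- mice. Their part in the Cyp4f18 signal was not tested. Cyp4f14, a leukotriene B4 hydroxylase of liver and kidney, and Cyp46a1, chiefly a brain enzyme, were not above background on any array.

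The Cyp4 genes past 1.5-fold are set here beside the share of all genes past it. For DM-WT against ND-WT, 1.75% of the 6055 genes were at least 1.5-fold higher and 0.875% at least 1.5-fold lower. Of the 5 Cyp4 genes measured on both, Cyp4a14 was higher and Cyp4a12a and Cyp4b1 were lower. For DM-KO against ND-KO the background was 0.536% higher and 0.505% lower, and of 6 measured members Cyp4a14 was higher and Cyp4a12a lower. For DM-KO against DM-WT it was 0.769% higher and 1.06% lower, and of 5 members only Cyp4a12a, higher on DM-KO, was past 1.5-fold. For ND-KO against ND-WT it was 0.176% higher and 0.447% lower, and of 6 members only Cyp4a14, higher on ND-KO, was. Because 3 of these members were named with results of these arrays known, the counts are a description. The median over the measured members was -0.03 in wild type and -0.26 in ICAM-1-/- mice, against 0.00 and -0.01 over all genes, and the members lay on both sides of 0.

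**Figure D2:**
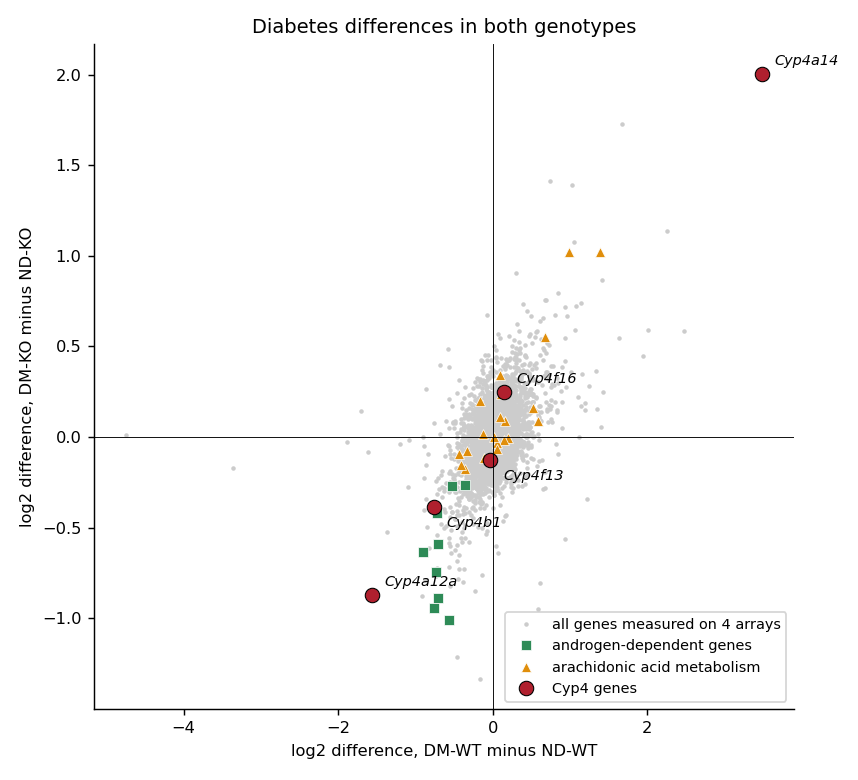
Log2 difference with diabetes in wild-type mice (horizontal axis, DM-WT minus ND-WT) against that in ICAM-1-/- mice (vertical axis, DM-KO minus ND-KO), 1 point per gene measured on all 4 arrays. Cyp4a14 stands at 3.49 and 2.00, Cyp4a12a at -1.56 and -0.87, Cyp4b1 at -0.76 and -0.39 near the androgen-dependent genes, and Cyp4f13 and Cyp4f16 within the cloud.

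A joint fit asked whether diabetes changed a gene in both genotypes together. Limma with diabetes and genotype as factors has 1 residual degree of freedom per gene, so its spread is the disagreement between genotypes, moderated across genes. In the fit of 6512 genes, 1 gene rose with diabetes (0.0154%) and 0 fell at a limma adjusted p under 0.05, while 832 had an unadjusted p under 0.05 (12.8%). None of the 6 members tested passed. Cyp4a14 had a log2 difference of 2.74 with an SE of 0.37 and a limma adjusted p of 0.151. Cyp4a12a had -1.21, an SE of 0.18 and a limma adjusted p of 0.169. Cyp4b1 had -0.57 with a limma adjusted p of 0.213, and Cyp4f15, whose DM-WT spot not above background entered the fit at its measured value, -0.41 with 0.171. Cyp4f16 and Cyp4f13 had 0.20 and -0.08, with limma adjusted p of 0.358 and 0.681.

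The calls differed between settings. With edge spots left out, 52 genes rose (0.836%) and 43 fell (0.691%) of 6221, and among them Cyp4a14 rose (limma adjusted p = 0.0227) and Cyp4a12a fell (0.0317). Their log2 differences there were 2.74 and -1.22, the same as with edge spots kept to within 0.01. Under median scaling, Cyp4a14 rose and Cyp4a12a and Cyp4b1 fell, with limma adjusted p of 0.0204, 0.0344 and 0.0227, among 30 genes that rose (0.461%) and 52 that fell (0.799%). Over the 9 other settings of the fit, the limma adjusted p of Cyp4a14 ran from 0.0204 to 0.247 and that of Cyp4a12a from 0.0317 to 0.294. For genotype, with diabetes as the other factor, 0.0307% of genes rose and 0.0154% fell, with 0.0321% and 0.161% once edge spots were left out and 0.107% each way under median scaling. No member passed in that fit or in any of its 9 other settings; Cyp4a12a had a log2 difference of 0.46 with a limma adjusted p of 0.554, and Cyp4a14 0.38 with 0.760.

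**Figure D3:**
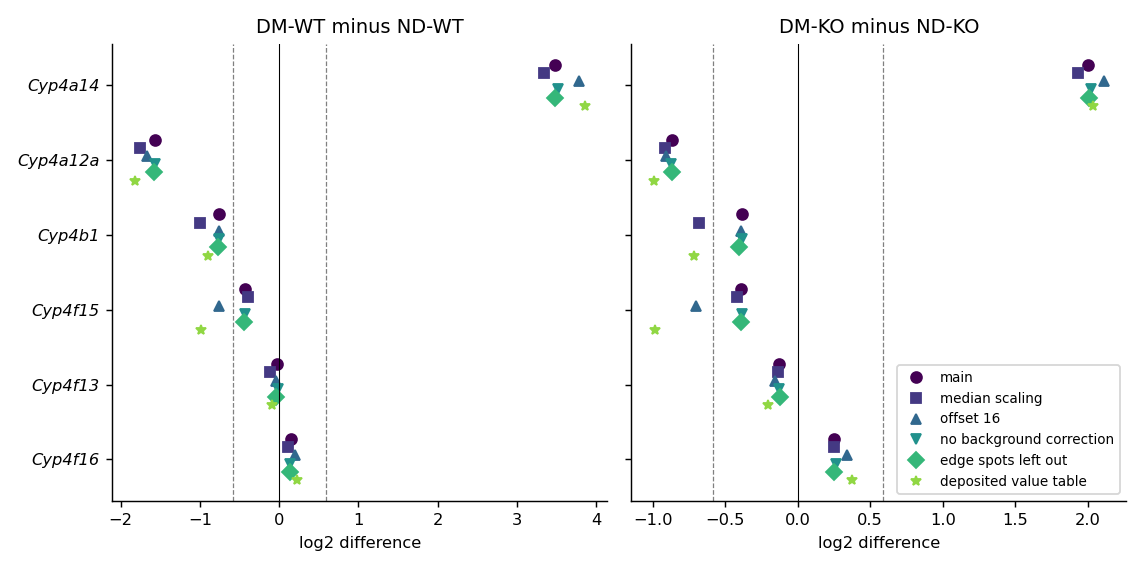
Log2 difference with diabetes for 6 Cyp4 genes under 6 ways of processing the same arrays, in wild-type mice (left) and ICAM-1-/- mice (right); dashed lines mark 1.5-fold, and the Cyp4f15 points on the left include a DM-WT spot not above background. Cyp4a14 and Cyp4a12a stay past the lines on their own sides under all 6 settings, while Cyp4b1 crosses the line in ICAM-1-/- mice at -0.68 and -0.71.

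Genes that share a control or a pathway with the Cyp4 family were set beside it, as lists drawn up with earlier results of these arrays known. Among androgen-dependent male kidney genes other than Cyp4, 9 of 9 measured genes were lower with diabetes in wild type and 10 of 10 in ICAM-1-/- mice, 6 of them at least 1.5-fold in each, with medians of -0.71 and -0.61. The named members were Cyp2e1 (-0.90 and -0.63; a P450 of ethanol and ketone oxidation, printed at the array edge), Acsm3 (-0.76 and -0.94; a medium-chain acyl-CoA synthetase), Nudt19 (-0.71 and -0.89; a peroxisomal hydrolase of coenzyme A) and Cyp7b1 (-0.57 and -1.01; an oxysterol hydroxylase). With edge spots left out, 7 of 7 were lower in each genotype, and limma called 5 that fell of 7 tested, Acsm3, Cyp7b1, Kap, Nudt19 and Odc1, while with edge spots kept it called 0 of 9. Cyp4a12a was lower than all of them in wild type, at -1.56, and Cyp4b1, at -0.76, lay close to their median. In ICAM-1-/- mice Cyp4a12a, at -0.87, lay above Cyp7b1, Acsm3 and Nudt19, and Cyp4b1, at -0.39, above the median of -0.61. Of 4 female-biased genes on the array only Slco1a6, an organic anion transporter, was measured, at -0.31 and -0.34.

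Genes for the steps that follow the hydroxylase were mostly lower on the diabetic arrays, unlike Cyp4a14. Of 10 measured genes of later omega-oxidation, 10 were lower with diabetes in wild type and 9 in ICAM-1-/- mice, with medians of -0.22 and -0.16, but only the edge gene Adh1, an alcohol dehydrogenase, passed 1.5-fold in wild type, at -0.72. Limma called none of 10 with quantile normalization, none of 9 with edge spots left out, and under median scaling Adh1 as a gene that fell. The carnitine octanoyltransferase Crot was at -0.23 and -0.18, and the peroxisomal transporter Abcd3 at -0.32 and -0.12. Under median scaling the medians were -0.45 and -0.22 where all genes stood at -0.08 and -0.02.

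Targets of PPAR-alpha and genes of fatty acid oxidation were split. Of those measured, 17 of 31 were higher with diabetes in wild type and 19 of 30 in ICAM-1-/- mice, with medians of 0.11 and 0.10 and highest values of 1.15 and 0.40. Past 1.5-fold were 2 higher and 1 lower in wild type and 0 in ICAM-1-/- mice. The medians depended on the setting. Under median scaling they were 0.00 and 0.06, where all genes stood at -0.08 and -0.02. There 16 of 31 were higher in wild type, 1 of them past 1.5-fold, and 17 of 30 in ICAM-1-/- mice. In the deposited table the medians were 0.11 and 0.01, where all genes stood at -0.06 and -0.04. Acot1, a thioesterase of long-chain acyl-CoA, was at 0.53 and 0.40. It alone of the list rose in limma with edge spots left out (adjusted p = 0.0457). With edge spots kept and quantile normalization, limma called 0 of 32 for diabetes, and Acot1 had a limma adjusted p of 0.169. Under median scaling limma also called 0 of 32 for diabetes. Acsl1, an acyl-CoA synthetase, was at 0.45 and 0.36, the mitochondrial carrier Ucp2 at 1.15 and 0.17, and the fatty acid transporter Cd36 at -0.70 and -0.23.

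A further list held genes that make or convert products of arachidonic acid, itself a substrate of Cyp4a enzymes. At least 1.5-fold higher were 4 of 23 measured genes in wild type and 2 of 22 in ICAM-1-/- mice, with 0 lower in either. Under median scaling 2 were higher and 3 lower in wild type. Ephx1, the microsomal epoxide hydrolase, was at 1.39 and 1.02, leukotriene C4 synthase Ltc4s at 0.99 and 1.02, carbonyl reductase Cbr1 at 0.68 and 0.55, and the 5-lipoxygenase activating protein Alox5ap at 0.52 and 0.16. With edge spots left out, and under median scaling, limma called Ephx1, Ltc4s and Cbr1 as genes that rose, of 23 tested; with edge spots kept and quantile normalization it called none.

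Most other P450 genes lay within 1.5-fold with diabetes, under each scaling. Of 20 measured in wild type 1 was at least 1.5-fold higher and 1 lower, and of 22 in ICAM-1-/- mice 0 were higher and 2 lower. The wild-type counts were 1 and 5 under median scaling and 3 and 4 in the deposited table. Cyp24a1, the vitamin D 24-hydroxylase, was at 0.73 and 0.34, and Cyp2d26, a drug-metabolising P450, at 0.43 and 0.44. Cyp2e1 and Cyp7b1 are in this list too. Another list held genes that pass electrons to P450 enzymes or make, bind or break down haem. Of these, 1 of 8 was past 1.5-fold in wild type and 0 of 9 in ICAM-1-/- mice. The 1 was Hmox1, a haem oxygenase that breaks haem down, at 0.63. Under median scaling the wild-type list had 0 higher and 1 lower. Cytochrome b5 (Cyb5a), a donor to Cyp4 enzymes, was at -0.49 and -0.29, ferredoxin Fdx1 at -0.19 and -0.30, and the haem-binding Pgrmc1 at 0.26 and 0.06.

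**Figure D4:**
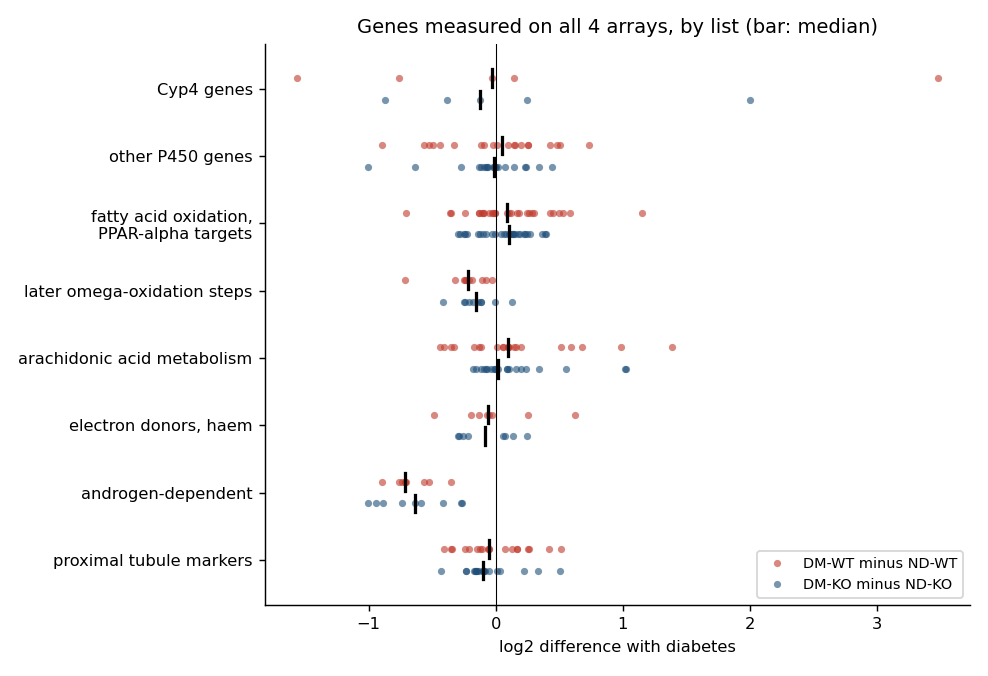
Log2 difference with diabetes for genes measured on all 4 arrays, by list, with wild-type (red) and ICAM-1-/- (blue) differences in separate rows and black bars for medians. Cyp4 genes spread from -1.56 to 3.49 in wild type, while the androgen-dependent genes all lie below 0 and the proximal tubule markers lie around 0.

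Markers of the proximal tubule, where Cyp4a enzymes are made, were compared on the same arrays. Of 19 markers measured on DM-WT and ND-WT, 0 were past 1.5-fold, with a median of -0.05, and of 20 on DM-KO and ND-KO 1 was higher and 0 lower, with a median of -0.10. Scaling moved these values: under median scaling the wild-type median was -0.27, with 2 markers at least 1.5-fold lower and 15 of 19 below 0, where all genes stood at -0.08. The ICAM-1-/- median was then -0.14, and in the deposited table the medians were -0.17 and -0.18. The largest by mean difference were Gatm (0.25 and 0.50), Slc13a1 (0.42 and 0.23), Slc34a1 (-0.34 and -0.23) and Ggt1 (-0.41 and -0.15). The summed scaled intensity of the 20 markers was 828 and 738 in wild type without and with diabetes. In ICAM-1-/- mice it was 719 and 617, and thus lower on each diabetic array than on its control. This sum takes linear intensities divided by each array's median, without quantile normalization. It therefore depends on that scaling, and the brightest markers weigh most in it. In whole cortex, fewer cells of a type and less RNA per cell cannot be told apart. The part of tubule content in the lower Cyp4a12a and Cyp4b1 was not tested.

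The genes with the nearest profiles to the leading Cyp4 genes were found by root mean square distance between centred log2 profiles over the 4 arrays, among 5442 named genes measured on all of them. For Cyp4a14 the nearest was Aldh1a1, a retinaldehyde dehydrogenase, at 0.71, with differences of 1.67 and 1.73, followed by Cck, Ephx1, Irf7 and Gdf15, at up to 0.87. The largest wild-type difference among these 5 was 2.48, of Irf7, below the 3.49 of Cyp4a14. For Cyp4a12a they were Pzp, Car3, Serpinf2, C1qtnf3 and the edge gene Acadsb, from 0.27 to 0.33, and 2 of the 5 stayed among its nearest with an offset of 16 and in the deposited table. For Cyp4b1 they were Ces1e, Acy1, Nat8f1, Adh1 and Csn1s2a, from 0.03 to 0.06, and 1 of the 5 stayed under median scaling and in the deposited table. For Cyp4a14, 3 to 5 of its 5 stayed under the settings tried. Within the family, Cyp4a12a and Cyp4b1 were 0.40 apart and Cyp4a12a and Cyp4a14 2.05. These are 4 points per gene on shared arrays and carry no test.

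Cyp4a14, Cyp4a12a and Cyp4b1 lie in 1 cluster on chromosome 4 that holds 10 protein-coding Cyp4 genes in RefSeq, and Cyp4f13, Cyp4f14, Cyp4f15 and Cyp4f16 in 1 on chromosome 17 that holds 8. The 10 nearest measured genes around the first cluster, 5 on each side, had diabetes differences of -0.15 to 0.18 in wild type and -0.20 to 0.21 in ICAM-1-/- mice. Cyp4a14 and Cyp4a12a thus lay outside the range of their neighbours in opposite directions, and Cyp4b1 below it. Around the second cluster the range was -0.49 to 0.06 and -0.37 to 0.28, and Cyp4f13 lay inside it in both genotypes. Cyp4f16 lay above it in wild type, at 0.15, and inside it in ICAM-1-/- mice, at 0.25. Cyp4f15, at -0.39 in ICAM-1-/- mice, lay just below it.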

How the data were processed

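Total RNA of renal cortex was biotin-labelled and hybridised to 1 CodeLink array per group, per the labels' protocols. The scanner tables deposited by the authors give spot mean and local background intensity on a linear scale, and the deposited value table gives the background-subtracted intensity divided by 1 constant per array, which held for 100% of compared probes within 0.1%; how the constants were chosen is not given in the sources used here. Depth does not apply to arrays; their number, 4, limits the precision. From the deposited intensities, log2 values were computed here with normexp (offset 50) and quantile normalization in limma 3.58.1 under R 4.3.3. The build behind the authors' probe design is not given in the sources used here; promoter sequences are RefSeq's, on GRCm38.p6. Genes took the platform table's symbol; probes of a gene were averaged, and each member has 1. Spots marked poor were dropped, and no member had one.

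Pairwise differences were counted at 1.5-fold among genes usable on both arrays, with the higher of the dim spot and the lowest usable signal as bound otherwise. The limma fit of diabetes and genotype took genes usable on at least 2 arrays, with all 4 values of each, with Benjamini-Hochberg adjustment over all genes, and was tested on simulated data. Alternatives were median scaling, an offset of 16, no background correction, the deposited table (log2 of value plus 0.1), edge spots (columns 44 to 48 of the upper block) left out, no filter, 2-fold, an intensity trend, genes usable on all 4 arrays and no covariate. All members are named, with up to 4 genes per list by mean absolute diabetes difference among genes usable on all 4 arrays, and the 5 nearest profiles. A gene that this rule would name is not reported here. The members and lists were chosen with earlier results of these data known.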

Additional observations from a re-analysis of the deposited data

Results flagged for a closer look

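The genotype difference of Cyp4a14 had opposite signs without and with diabetes: the log2 difference of ICAM-1-/- minus wild type was 1.12 without diabetes and -0.36 with it, and this reversal was not tested, with 1 array per group. The same difference of Cyp4b1 was -0.16 without diabetes and 0.215 with it, also not tested, and the second of these was 0.07 in the deposited value table. For Cyp4b1 both are within 2 times the spot-to-spot SD of 0.13.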

How the results depend on the processing

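No paired analysis was possible because each group has 1 array, and leaving out an array would leave no residual degree of freedom, so neither was run. Each member has 1 probe, so taking probes singly changes nothing. Of 150 values of Cyp4 log2 differences under other settings, 128 moved by less than the spot-to-spot SD, 22 by more, and 0 of those past 1.5-fold changed sign. Genes past 1.5-fold numbered 159 for DM-WT against ND-WT, and 264 with an offset of 16, 347 in the deposited table and 37 at 2-fold. For DM-KO against ND-KO they numbered 66, and 115, 152 and 12, with Cyp4 genes 2, and 4 in the table and 1 at 2-fold. For DM-KO against DM-WT they numbered 112, and 186, 218 and 26, and 169 with no filter, with Cyp4 genes 1, and 0 at 2-fold. For ND-KO against ND-WT they numbered 39, and 78, 111 and 6. Split into higher and lower, DM-WT against ND-WT gave 106 and 53, but 69 and 124 under median scaling, 182 and 165 in the table and 116 and 90 with no filter; DM-KO against DM-WT gave 47 and 65, but 62 and 48 and 93 and 76 under median scaling and no filter; ND-KO against ND-WT gave 11 and 28, but 46 and 65 in the table. Limma called 1 gene for diabetes, 0 with the table, an intensity trend, no background correction, no covariate or an offset of 16, 95 with edge spots left out and 82 under median scaling, with 0, 2 and 3 Cyp4 genes among the main, edge and median counts. For genotype it called 3 genes, 1 with the table, with genes usable on all 4 arrays or with an offset of 16, 12 with edge spots left out and 14 under median scaling; the Cyp4b1 genotype value of 0.03 became -0.0271 in the table. Counts for the gene lists under these settings were added after seeing the data. The cause of these shifts was not tested. Signal over background limits Cyp4f14, Cyp4f15, Cyp4f18 and Cyp46a1.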
